A study of Homo sapiens with 12 samples.

Results

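Choline salicylate (CS), a salt of salicylate, was added to cells of the human mantle cell lymphoma line JEKO-1 that also received KPT-330, and the 3 libraries of the combination (KPT-330+CS) were set against the 3 libraries of KPT-330 alone. These 6 libraries, of 12 in the series, were taken as their labels name them. All came from RNA after 48 h of treatment in RPMI-1640 with 10% fetal bovine serum. KPT-330 had been dissolved in DMSO and CS diluted in PBS. The other 6 libraries, 3 of CS without KPT-330 and 3 of DMSO alone (the solvent control), show what CS did where XPO1 was not inhibited. The series concerns whether salicylates add to the action of an inhibitor of CRM1, another name of XPO1, through arrest in S phase and poorer repair of DNA damage. JEKO-1 is a cultured line from 1 patient's B cell lymphoma, and the labels give concentration ranges for the whole study but no dose for these samples. They also do not say that replicates were separate cultures; the p-values here measure no more than how far these libraries scatter, and that scatter may be technical.

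XPO1 carries proteins with a nuclear export signal, and some RNAs, out of the nucleus, and KPT-330 (selinexor) binds the groove in which XPO1 holds that signal. Its cargoes include tumour suppressors and cell cycle regulators such as p53 and the FOXO factors. Salicylate, the deacetylated form of aspirin, is known to bind and activate AMP-activated kinase (AMPK), to uncouple mitochondria at high concentration, and to inhibit the kinase that releases NF-kappaB. Mantle cell lymphoma carries a translocation that drives cyclin D1 (CCND1) and typically expresses SOX11.

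The KPT-330+CS libraries held 46252572, 35325563 and 54426896 reads counted in genes, and the KPT-330 libraries 50654498, 48439949 and 54865536. The B cell genes MS4A1 and PAX5 and the mantle cell lymphoma genes CCND1 and SOX11 were read in all 6. Markers of T cells, myeloid cells, natural killer cells, epithelium and fibroblasts each summed to less than 5 CPM (counts scaled to the size of the library) in every one of these libraries, and S100A8 and S100A9 had 0 reads. The share of reads from mitochondrial ribosomal RNA was 2.52%, 2.56% and 2.75% in KPT-330+CS and 1.45%, 1.46% and 1.41% in KPT-330. The libraries also differed in how far GC-rich genes were read: the slope of log2 CPM on GC content, per 10 percentage points, was 0.128, 0.0259 and −0.15 in KPT-330+CS and 0.203, 0.195 and 0.228 in KPT-330. KPT-330+CS replicate 3 therefore stood lowest for GC-rich genes, and the biological coefficient of variation was 10.9% among the KPT-330+CS libraries and 2.87% among the KPT-330 libraries. The first principal component took 52.4% of the variance, and the second, with 18.1%, placed KPT-330+CS at 20.5, 31.6 and 49.0 and KPT-330 at −36.0, −36.5 and −40.0.

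Of 19460 genes tested, 7311 (37.6%) differed between KPT-330+CS and KPT-330 in edgeR's quasi-likelihood test, with p adjusted by Benjamini and Hochberg to at most 0.05. CS added to KPT-330 raised 3836 genes (19.7%) and lowered 3475 (17.9%). Most changes were small: the median size among the called genes was 0.51 on the log2 scale, and 571 rose and 568 fell by more than 1. At the study's own limit, an absolute log2 fold change over 2, 63 genes (0.324%) were higher and 103 (0.529%) lower. Libraries of the groups did not overlap for 11114 genes (57.1%), more than were called. The median over all tested genes was −0.00, so the lists of genes described below are read against a centre of 0.

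XPO1 itself had 1471, 1501 and 1624 CPM in KPT-330+CS, against 1556, 1619 and 1551 CPM in KPT-330. The groups overlapped, and the difference of −0.04 ± 0.07 (log2, SE) did not pass (edgeR adjusted p = 0.70); with a correction for GC content it was −0.17 and passed (adjusted p = 4.53e-06). Both groups stood above the libraries without KPT-330, where XPO1 averaged 889 ± 51.0 CPM with CS and 845 ± 87.7 CPM with DMSO (SD, n = 3 each).

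Among the genes with at least 5 CPM, the strongest rises included a testis-associated gene, a regulator of G protein signalling, autophagy and stress genes and an interferon-induced gene. FAM9B (ENSG00000177138, hg38 chromosome X, 9024232 to 9164639) had 5.63, 4.83 and 5.78 CPM in KPT-330+CS, against 0.99, 1.01 and 1.08 CPM in KPT-330, a log2 fold change of 2.40 ± 0.14 (SE; edgeR adjusted p = 1.49e-07). RGS1 (ENSG00000090104, chromosome 1, 192575727 to 192580031), which speeds the switching off of G proteins in lymphocytes, had 4.85, 5.57 and 5.35 CPM, against 1.29, 1.52 and 1.28 CPM, and rose by 1.94 ± 0.13. All 3 combination libraries lay above all 3 KPT-330 libraries for both genes, as the rule for naming genes required of every gene in this paragraph and the next. GABARAPL1 (ENSG00000139112, chromosome 12, 10212458 to 10223130), whose protein is conjugated to autophagosome membranes, had 12.6, 11.9 and 14.4 CPM with the combination and 3.54, 4.34 and 3.74 CPM with KPT-330 (1.74 ± 0.12). TSC22D3, the glucocorticoid-induced leucine zipper gene and a FOXO target, had 78.9, 74.6 and 74.6 CPM, against 25.2, 23.2 and 25.4 CPM (1.63 ± 0.06). TP53INP1, a stress gene induced by p53 that promotes autophagy and cell death, had 16, 18.3 and 18.5 CPM, against 5.37, 4.89 and 4.50 CPM (1.84 ± 0.14); it overlaps NDUFAF6 on the opposite strand over 4% of its exon bases. OAS1 (1.66 ± 0.06) senses double-stranded RNA, and SPP1 (1.48 ± 0.06) encodes osteopontin. DLGAP1-AS1, an antisense RNA (1.81 ± 0.14), JAKMIP2 (1.71 ± 0.18), KLHL31 (1.65 ± 0.16), the thyrotropin receptor gene TSHR (1.62 ± 0.09) and IQCD (1.59 ± 0.13) completed the 12 highest.

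The strongest falls included genes of carnitine synthesis and fatty acid uptake and several surface proteins. BBOX1 (ENSG00000129151, chromosome 11, 27040725 to 27127809), the enzyme that completes carnitine synthesis, had 6.44, 6.69 and 7.51 CPM in KPT-330+CS, against 87.4, 87.5 and 87.3 CPM in KPT-330, a log2 fold change of −3.66 ± 0.08 (edgeR adjusted p = 1.92e-11). CD36 (ENSG00000135218, chromosome 7, 80369575 to 80679277), a receptor that takes up long-chain fatty acids, had 0.785, 1.15 and 1.06 CPM, against 7.06, 7.31 and 7.68 CPM (−2.89 ± 0.13). ABCA6, a transporter of the cholesterol-responsive ABCA cluster, had 8.41, 8 and 9.65 CPM with the combination and 44.9, 48.2 and 44.2 CPM with KPT-330 (−2.39 ± 0.10). In each of the 3 genes the highest combination library lay far below the lowest KPT-330 library. The guidance ligand gene SLIT2 (ENSG00000145147, chromosome 4, 20253260 to 20620561) had 2.90, 3.92 and 3.37 CPM, against 17.5, 16.8 and 16.8 CPM (−2.33 ± 0.13). CADM1 (ENSG00000182985, chromosome 11, 115169218 to 115504957), a cell adhesion molecule, had 12.7, 13.7 and 13.1 CPM, against 60.0, 58.9 and 58.6 CPM (−2.17 ± 0.07). LIX1 (−2.28 ± 0.19), the neuronal membrane protein gene SLITRK6 (−2.27 ± 0.15), the immunoglobulin transporter gene PIGR (−2.17 ± 0.18) and RAB15 (−2.15 ± 0.16) also fell. So did PDCD1, the gene of the checkpoint receptor PD-1 (−2.07 ± 0.35), and the Src-family kinase gene FGR (−2.02 ± 0.17).

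**Figure D1:**
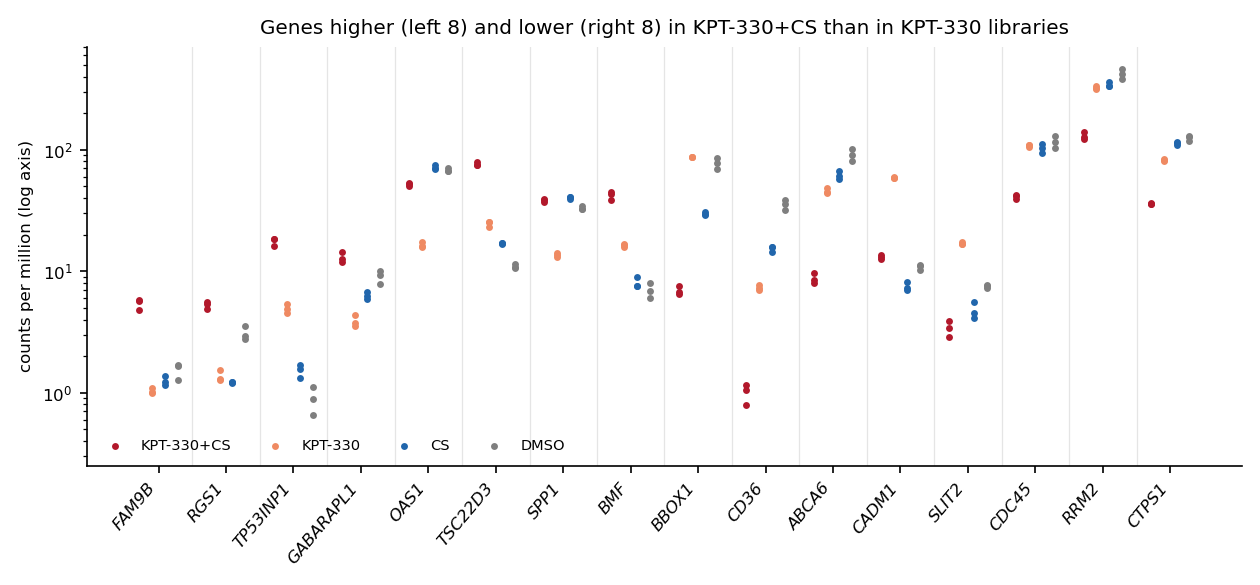
CPM (log axis) of 16 genes in every library, with 8 higher genes on the left and 8 lower genes on the right; each point is a library and colours give KPT-330+CS, KPT-330, CS and DMSO. BBOX1 lies between 6.44 and 7.51 CPM in KPT-330+CS, against 87.3 to 87.5 CPM in KPT-330.

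Some of these 24 genes had changed with KPT-330 against DMSO and changed back when CS was added; the examples were chosen after their values were seen. OAS1 averaged 51.9 ± 1.49 CPM in KPT-330+CS and 16.5 ± 0.84 CPM in KPT-330, and 71.9 ± 2.94 CPM in CS and 67.6 ± 2.27 CPM in DMSO (SD, n = 3 each). SPP1 averaged 38.3 ± 0.80 CPM in KPT-330+CS and 13.7 ± 0.52 CPM in KPT-330, and 40.4 ± 1.04 CPM in CS and 33.0 ± 1.16 CPM in DMSO. CADM1, which KPT-330 had raised, was at 13.2 ± 0.49 CPM in KPT-330+CS and 59.2 ± 0.73 CPM in KPT-330, and at 7.46 ± 0.60 CPM in CS and 10.8 ± 0.58 CPM in DMSO. Others moved further along the course that KPT-330 had taken. CD36 averaged 0.997 ± 0.19 CPM in KPT-330+CS and 7.35 ± 0.31 CPM in KPT-330, and 15.3 ± 0.80 CPM in CS and 35.5 ± 3.26 CPM in DMSO. TSC22D3 averaged 76.1 ± 2.46 CPM in KPT-330+CS and 24.6 ± 1.22 CPM in KPT-330, and 16.9 ± 0.20 CPM in CS and 11 ± 0.52 CPM in DMSO. The comparisons of KPT-330+CS with KPT-330 and of KPT-330 with DMSO share the KPT-330 libraries, so these values are given side by side without a test of their relation.

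Genes that copy DNA were lower together. Of 47 tested genes of replication and of the passage into S phase, 43 fell and 0 rose when CS was added to KPT-330, with a median of −0.62, against −0.00 over all tested genes. In cell culture RNA, fewer cells in S phase and less of these messages per cell cannot be told apart. Among the 43 were all 6 subunits of the replicative MCM helicase (MCM2 to MCM7), between −1.01 ± 0.22 for MCM5 and −0.37 ± 0.07 for MCM6. The 4 that did not pass were POLD2 (−0.46 ± 0.19), PRIM2 (−0.19 ± 0.08), RPA3 (−0.12 ± 0.06) and RPA1 (−0.10 ± 0.04).

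The E2F factors, which activate many of these genes at the start of S phase, bind TTTCCCGC-like sites near the gene start. Read on both strands, TTTCCCGC stood between 250 bases before and 50 after the start of 9 of the 39 list genes with a RefSeq window (23.08%), against 1.63% of all 35116 windows. It stood in 1 of 23 windows of the nucleotide list (4.35%), that of TYMS, and in 1 of 31 of the mitotic list (3.23%). Of lists described below, it stood in 3 of 31 windows for recombination (9.68%) and 1 of 18 for cholesterol (5.56%), where 11 of 23 genes rose and 0 fell. It stood in 0 of 28, 43 and 14 windows of the ATF4, histone and MHC class II lists. The lists took 1 window for each gene, and the total took all windows. The 250 bases before the start of 3 genes that fell are shown to place that motif, which reads GCGGGAAA on the strand of each of these genes and is given in capitals; PCNA and MCM7, outside the naming rule, were chosen for the motif after their values were seen, and TYMS belongs to the nucleotide list described next. The windows are from RefSeq (GRCh38.p14): chr20:5126623-5126872 on the minus strand for PCNA, chr7:100101398-100101647 on the minus strand for MCM7, and chr18:657403-657652 on the plus strand for TYMS.
PCNA: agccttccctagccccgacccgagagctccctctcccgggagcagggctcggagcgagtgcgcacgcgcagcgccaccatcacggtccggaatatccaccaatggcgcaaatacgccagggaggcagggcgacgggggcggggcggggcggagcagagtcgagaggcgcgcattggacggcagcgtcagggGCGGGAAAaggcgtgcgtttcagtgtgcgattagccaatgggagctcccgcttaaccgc
MCM7: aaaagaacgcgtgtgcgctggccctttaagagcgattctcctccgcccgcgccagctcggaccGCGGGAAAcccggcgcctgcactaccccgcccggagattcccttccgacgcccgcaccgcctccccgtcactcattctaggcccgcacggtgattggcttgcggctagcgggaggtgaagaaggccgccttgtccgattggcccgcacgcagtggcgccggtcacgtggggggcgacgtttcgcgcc
TYMS: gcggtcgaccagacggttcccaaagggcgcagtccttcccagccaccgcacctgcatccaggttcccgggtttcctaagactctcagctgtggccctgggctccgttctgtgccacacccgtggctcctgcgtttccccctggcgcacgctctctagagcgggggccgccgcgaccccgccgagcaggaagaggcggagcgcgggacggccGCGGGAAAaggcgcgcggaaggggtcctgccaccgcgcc
The motif starts 59, 187 and 39 bases before the gene start in PCNA, MCM7 and TYMS. PCNA, the sliding clamp of the replication fork, had 269.8, 267.0 and 272.7 CPM in KPT-330+CS, against 441.8, 457.3 and 452.0 CPM in KPT-330 (−0.74 ± 0.05, edgeR adjusted p = 1.56e-07). MCM7 had 595.2, 579.7 and 499.7 CPM, against 924.6, 880.9 and 931.4 CPM (−0.71 ± 0.11), and AP4M1 overlaps 7.9% of its exon bases on the opposite strand. For both genes every combination library lay below every KPT-330 library. A match to a motif describes the sequence and is not a measured binding site.

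CDC45 (ENSG00000093009), which joins the MCM helicase when origins fire, fell most of the list. It had 42.5, 41.6 and 39.4 CPM in KPT-330+CS, against 109, 105 and 109 CPM in KPT-330, with no overlap and a log2 fold change of −1.39 ± 0.08 (edgeR adjusted p = 1.05e-07). CLSPN, the claspin gene, had 37.9, 39.6 and 40.6 CPM, against 76.3, 76.6 and 78.9 CPM (−0.97 ± 0.08). CDT1, which loads the helicase on origins, had 12.5, 9.68 and 7.81 CPM, against 22.5, 22.6 and 24.2 CPM (−1.21 ± 0.24). Its combination libraries fell in the order of their GC slopes, and with the GC correction its log2 fold change was −0.78 and still passed. The polymerase delta gene POLD1 (−1.22 ± 0.34, adjusted p = 0.0136) followed that order too, and it missed the threshold with no filter on low counts (adjusted p = 0.0999) and without KPT-330+CS replicate 3 (−0.98, adjusted p = 0.0574). Cyclin E2 (CCNE2) had 11.2, 11.1 and 12.3 CPM, against 21.9, 19.5 and 21.6 CPM (−0.86 ± 0.11); INTS8 overlaps 37% of its exon bases on the opposite strand. With the GC correction, which was fitted over all libraries, all 47 genes of the list were lower.

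Enzymes that supply nucleotides for replication were lower as well, with 22 of 28 lower, 1 higher and a median of −0.48. RRM2, the S phase subunit of ribonucleotide reductase, had 122, 128 and 140 CPM in KPT-330+CS, against 320, 334 and 317 CPM in KPT-330 (−1.32 ± 0.07, edgeR adjusted p = 8.79e-08). CTPS1, which makes CTP, had 36.6, 35.5 and 35.5 CPM, against 84.3, 82.8 and 80.2 CPM (−1.20 ± 0.05). Neither gene's groups overlapped. TYMS, thymidylate synthase, had 73.7, 75.3 and 78.3 CPM, against 158, 154 and 158 CPM (−1.04 ± 0.05), although 39.9% of its exon bases are shared with ENOSF1 on the opposite strand. The thymidine kinase gene TK1 (−1.19 ± 0.24) and DTYMK (−0.99 ± 0.20) fell. RRM2B, the reductase subunit that p53 induces outside S phase, was the member that rose, with 42.3, 41.4 and 46.1 CPM, against 31.2, 30.8 and 30.7 CPM (0.49 ± 0.09). GART (−0.17 ± 0.07) and IMPDH2 (0.13 ± 0.10) did not pass, but did with the GC correction (−0.27 and 0.18).

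Genes of G2 phase and mitosis were lower in 36 of 37 cases, with 0 higher and a median of −0.65. PLK1, a kinase of mitotic entry, had 59.4, 52.5 and 48.1 CPM in KPT-330+CS, against 119, 120 and 121 CPM in KPT-330 (−1.17 ± 0.11, edgeR adjusted p = 3.84e-06). UBE2C, which serves the anaphase-promoting complex, had 36.6, 35.0 and 36.8 CPM, against 72.5, 73.4 and 72.5 CPM (−1.01 ± 0.05). The survivin gene BIRC5 (−1.19 ± 0.11), the Aurora kinase gene AURKB (−1.08 ± 0.13) and CDC20 (−0.96 ± 0.11) fell in every combination library. CENPF, at −0.14 ± 0.08, did not pass, but did with the GC correction (−0.26).

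The 2 cell cycle lists differed in what KPT-330 had done before CS was added. Against DMSO, KPT-330 lowered 35 of the 37 mitotic genes, with a median of −0.84, and 19 of the 47 replication genes, with 7 higher and a median of −0.08. In that comparison 48.5% of all tested genes were called, 24.7% higher and 23.8% lower. Taken from the mean of KPT-330, the median replication gene was at −0.60, −0.59 and −0.63 in the KPT-330+CS libraries. In the same measure it was between 0.02 and 0.03 in the CS libraries and between 0.05 and 0.13 in the DMSO libraries. The median mitotic gene was at −0.71, −0.65 and −0.61 in KPT-330+CS, between 0.66 and 0.73 in CS and between 0.77 and 0.94 in DMSO. Of the 12 libraries, the replication median was thus low in the 3 of the combination alone, while the mitotic median was lowest in the combination and next lowest in KPT-330.

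**Figure D2:**
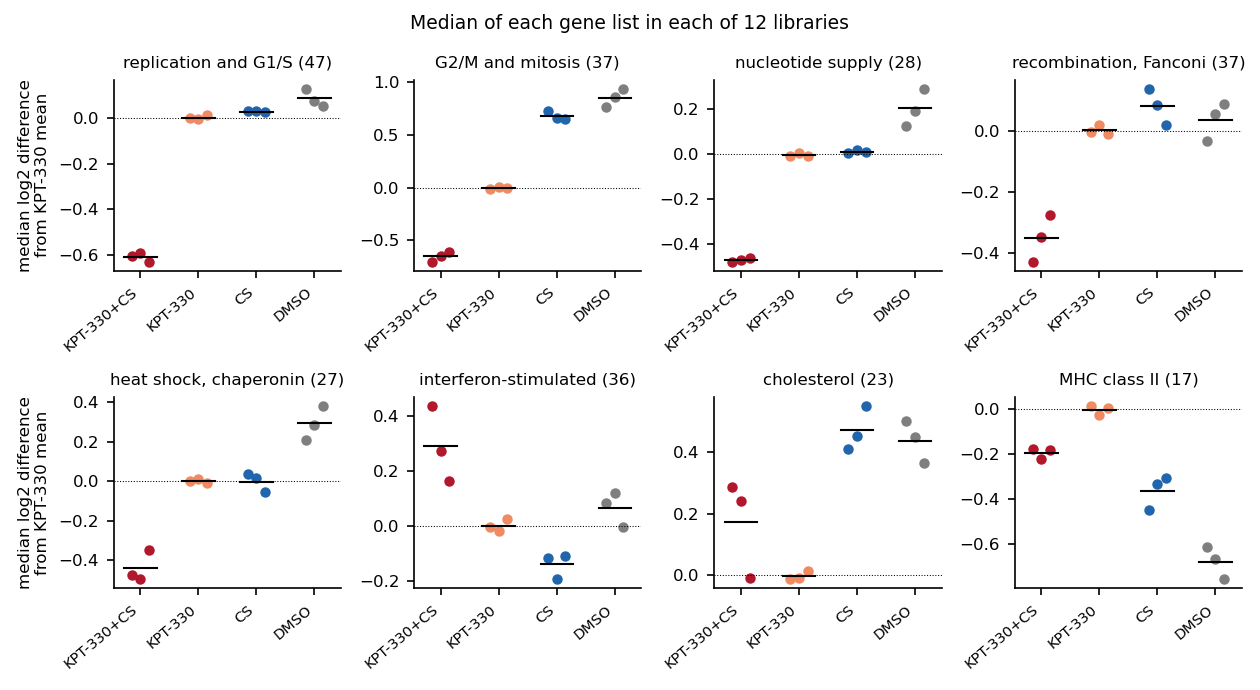
Median log2 difference of each of 8 gene lists from the mean of the KPT-330 libraries, by library (points) with group means (lines), in the order KPT-330+CS, KPT-330, CS, DMSO; the number of genes is in brackets and each panel has its own scale. The replication list lies between −0.63 and −0.59 in KPT-330+CS, and within 0.13 of 0 in the other 9 libraries.

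CS lowered fewer of these genes without KPT-330 than with it. In CS against DMSO, 5 of the 47 replication genes and 6 of the 37 mitotic genes were lower, with list medians of −0.07 and −0.13. Both shares were above the 5.13% of all tested genes that were lower there. The effect of CS in KPT-330 cells minus its effect in DMSO cells, the interaction, was negative and called for 35 of the 47 replication genes and 29 of the 37 mitotic genes. Over all tested genes the interaction was called for 2853 (14.7%), positive for 1565 (8.04%) and negative for 1288 (6.62%). That total ranged from 1713 without KPT-330 replicate 3 to 4711 without DMSO replicate 1, and was 5113 with the GC correction. For CDC45 this difference was −1.21 ± 0.11 (edgeR adjusted p = 2.81e-05) and for RRM2 −1.02 ± 0.10. No library is shared between these pairs of groups. The biological coefficient of variation was 11.9% among the CS libraries and 15.5% among the DMSO libraries, on which the interaction also rests. Their GC slopes ran from −0.229 to 0.0592 in CS and from −0.314 to 0.0874 in DMSO. The fit used a spread shared by all groups.

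Repair of broken DNA by homologous recombination, with the Fanconi anaemia pathway that unhooks crosslinks, was lower in 24 of 37 tested genes and higher in 1, with a median of −0.36. BRCA1, which directs this repair, had 65.4, 72.8 and 75.4 CPM in KPT-330+CS, against 93.0, 92.2 and 92.1 CPM in KPT-330 (−0.38 ± 0.07, edgeR adjusted p = 0.00144), and its interaction was −0.58 (adjusted p = 0.0028). EXO1, a nuclease that resects broken ends, had 73.6, 76.9 and 78.4 CPM with the combination and 140, 144 and 140 CPM with KPT-330 (−0.89 ± 0.06). The groups overlapped for neither gene. FANCA (−0.81 ± 0.09) and RAD54L (−0.78 ± 0.06) fell, but ZNF276 and LRRC41 on the opposite strand cover about 20% of their exon bases (19.6% and 19.9%). XRCC3 (−0.96 ± 0.19; −0.54 with the GC correction) shares 76.7% of its exon bases with KLC1, and its reads cannot be assigned. FANCF rose (0.43 ± 0.06), and BRCA2 (−0.13 ± 0.08), RAD50 (0.05 ± 0.08) and MRE11A (0.07 ± 0.08) did not pass. The interaction was negative and called for 19 of the 37 genes (30 with the GC correction) and positive for 1.

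Checkpoint genes, which hold the cycle while damage is mended, were lower in 14 of 24 cases and higher in 3, with a median of −0.40. CHEK1, the kinase that restrains origin firing, had 74.3, 74.4 and 81.6 CPM in KPT-330+CS, against 101, 105 and 98.0 CPM in KPT-330 (−0.40 ± 0.06, edgeR adjusted p = 0.000372). WEE1, which keeps CDK1 inactive, had 161, 173 and 187 CPM, against 269, 277 and 270 CPM (−0.65 ± 0.08). CDC25A, the phosphatase that opposes WEE1, had 68.2, 70.5 and 75.3 CPM, against 128, 126 and 129 CPM (−0.84 ± 0.05). The genes of both arms of that switch thus fell without overlap. The GC-rich genes PKMYT1 (−1.37 ± 0.22, and −0.87 with the GC correction; PAQR4, on the opposite strand and more abundant, covers 24.7% of its exon bases) and H2AFX, the histone marked at breaks (−1.13 ± 0.23, and −0.63), fell with the order of the GC slopes. ATM, RNF8 and RAD17 were the 3 that rose, ATM to 470.4, 495.5 and 534.3 CPM, against 388.6, 403.9 and 393.0 CPM (0.34 ± 0.07). Of end joining, mismatch and excision repair, 17 of 37 genes fell and 4 rose, with a median of −0.15. They included POLQ, the polymerase of microhomology-mediated joining (−0.79 ± 0.08), and PRKDC, the catalytic subunit of DNA-PK (−0.64 ± 0.05).

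**Figure D3:**
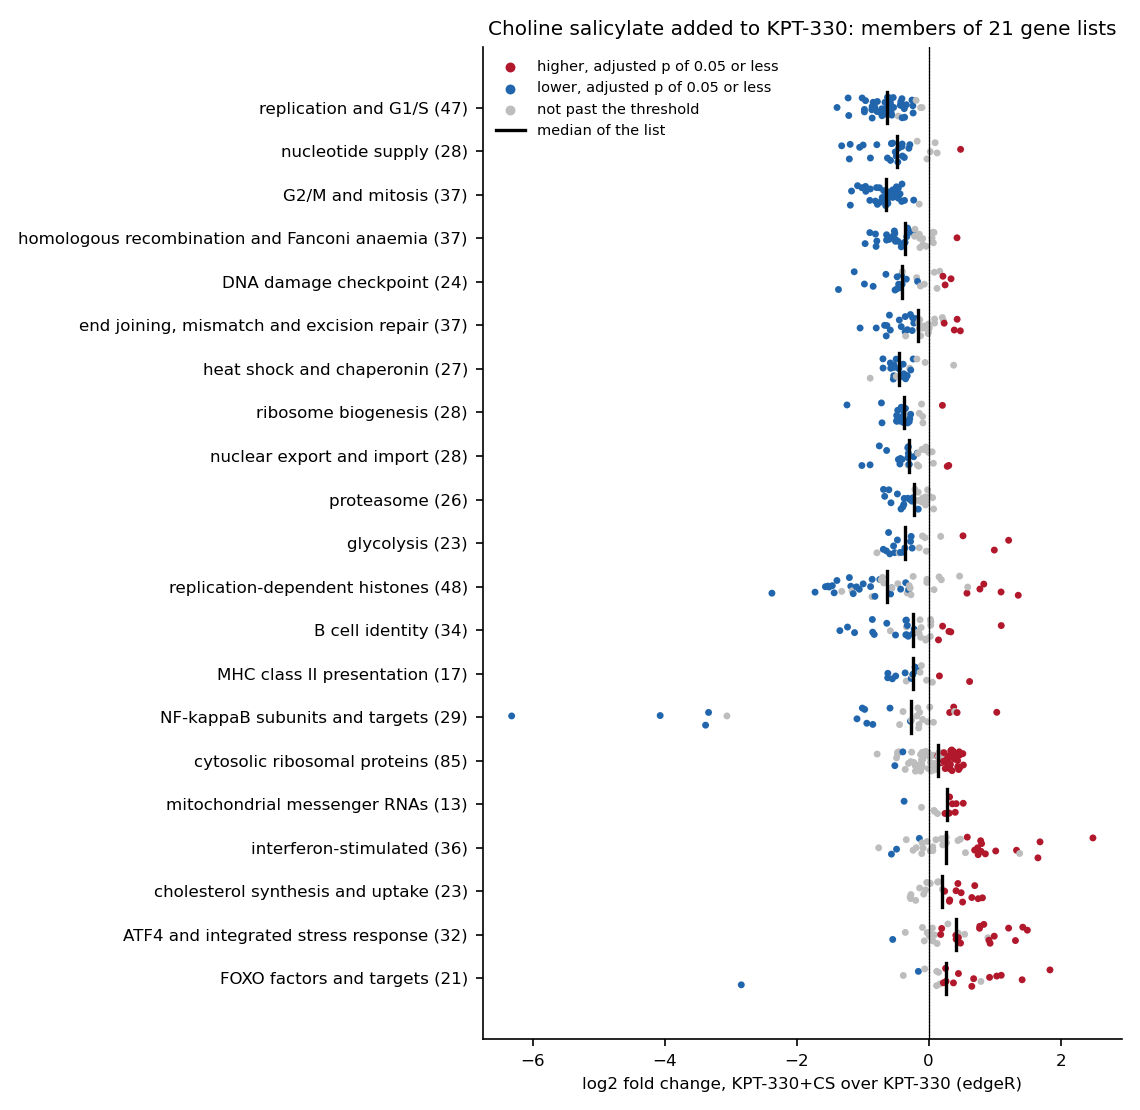
Log2 fold change of KPT-330+CS over KPT-330 for every tested member of 21 gene lists (number tested in brackets), with red for higher and blue for lower members that passed and grey for the rest; bars mark medians. The 47 replication genes have a median of −0.62 and the 32 ATF4 genes of 0.42.

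Replication-dependent histone genes were lower in 23 of 48 tested cases and higher in 5, with a median of −0.63; 70 stand in the table. HIST1H1D, a linker histone gene, had 5.81, 5.09 and 4.93 CPM in KPT-330+CS, against 17.0, 17.4 and 17.8 CPM in KPT-330 (−1.72 ± 0.11, edgeR adjusted p = 1.83e-07). HIST1H4K (1.36 ± 0.43) and HIST1H3B (1.10 ± 0.24) were among the 5 that rose. CS without KPT-330 lowered more of this list, 29 of 48, with a median of −0.88, and the interaction was positive for 13 and negative for 1. The 5 that rose became 3 without KPT-330+CS replicate 2 or without any 1 of the KPT-330 replicates. Most histone messages carry no poly(A) tail, which the library preparation selects for, and near-identical histone genes can share reads.

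The ATF4 programme, which cells switch on when amino acids run short or translation initiation is checked, rose in 16 of 32 genes and fell in 1, with a median of 0.42. ATF3, a stress factor induced by ATF4, had 2.25, 2.59 and 2.56 CPM in KPT-330+CS, against 0.761, 0.852 and 0.997 CPM in KPT-330 (1.5 ± 0.21, edgeR adjusted p = 0.000111). DDIT4, an inhibitor of mTORC1, had 11.7, 11.2 and 9.96 CPM, against 5.12, 5.58 and 5.77 CPM (0.99 ± 0.10). VEGFA had 16.7, 15.9 and 13.1 CPM with the combination and 6.58, 6.44 and 5.30 CPM with KPT-330 (1.32 ± 0.13). The groups did not overlap for any of them. VLDLR (1.43 ± 0.29) rose, and CHAC1, which degrades glutathione, was at 1.21 ± 0.35 with about 1 CPM; its adjusted p of 0.0152 became 0.0655 without KPT-330+CS replicate 1 and 0.0531 without KPT-330 replicate 2. SLC6A9 (0.90 ± 0.49) and CEBPB (0.55 ± 0.21) did not pass, though with the GC correction CEBPB did (1.04, adjusted p = 3.48e-05).

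ASNS, asparagine synthetase, is a standard ATF4 target, and its start carries the composite site for ATF4 and C/EBP factors. The composite, searched as TGATGNAAN on both strands with N as any base, stood in 5 of 28 windows of the list (17.86%), against 3.61% of all windows. ASNS, outside the naming rule and chosen for this site, is shown 250 bases up to its start (RefSeq, GRCh38.p14, chr7:97872409-97872658 on the minus strand), with the match in capitals, 68 bases before the start.
ASNS: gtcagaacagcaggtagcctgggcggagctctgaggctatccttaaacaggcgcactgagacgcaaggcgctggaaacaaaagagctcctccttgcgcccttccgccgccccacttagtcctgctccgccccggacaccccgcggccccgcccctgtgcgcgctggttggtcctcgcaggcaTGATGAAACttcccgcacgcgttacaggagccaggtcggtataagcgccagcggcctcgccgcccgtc
ASNS had 85.4, 85.6 and 93.8 CPM in KPT-330+CS, against 47.9, 46.9 and 45.7 CPM in KPT-330 (0.91 ± 0.07, edgeR adjusted p = 1.42e-06). CS without KPT-330 raised it by 0.83, to 101 ± 6.26 CPM, against 56.9 ± 5.46 CPM in DMSO. The interaction for ASNS was 0.08 and did not pass (adjusted p = 0.618). Of the list, CS alone raised 14 genes (background 3.76% higher), and 11 rose in both settings.

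Heat shock and chaperonin genes, which fold new and damaged proteins, fell in 21 of 27 cases with 0 higher and a median of −0.45. HSPH1 had 361, 376 and 390 CPM in KPT-330+CS, against 600, 617 and 603 CPM in KPT-330 (−0.69 ± 0.07, edgeR adjusted p = 1.29e-05). STIP1, which links HSP70 to HSP90, had 338, 343 and 336 CPM, against 553, 532 and 554 CPM (−0.69 ± 0.04). HSPA8 (−0.58 ± 0.07), the chaperonin gene TCP1 (−0.57 ± 0.07) and HSPD1 of mitochondria (−0.55 ± 0.06) fell without overlap. HSPB1 (−0.89 ± 0.34) and the heat shock factor gene HSF1 (−0.49 ± 0.22) did not pass, and with the GC correction HSPB1 did (−0.49). CS alone lowered 18 of the 27, all 18 of which also fell in KPT-330 cells, and the interaction was called negative for 6 (17 with the GC correction). Of genes of the unfolded protein response of the endoplasmic reticulum, 6 of 26 (23.1%) were higher and 8 (30.8%) lower. Over all tested genes these shares were 19.7% and 17.9%. XBP1 had 14.4, 14.4 and 15 CPM, against 8.64, 9.39 and 7.98 CPM (0.75 ± 0.09), and HYOU1 fell (−0.47 ± 0.10). The 8 became 4 without KPT-330+CS replicate 2 or KPT-330 replicate 1 or 2, and 5 without replicate 3 of either group.

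Genes of the FOXO factors, themselves XPO1 cargoes, rose in 12 of 21 cases and fell in 2, with a median of 0.26. FBXO32, a ubiquitin ligase subunit, had 19.6, 19.6 and 21.3 CPM in KPT-330+CS, against 7.92, 7.66 and 7.10 CPM in KPT-330 (1.42 ± 0.19, edgeR adjusted p = 8.5e-05). It averaged 1.11 ± 0.54 CPM in CS and 0.692 ± 0.08 CPM in DMSO, and KPT-330 alone raised it by 3.45 against DMSO. PIK3IP1, which restrains PI3 kinase, had 6.70, 6.37 and 5.95 CPM, against 3.25, 3.05 and 2.99 CPM (1.03 ± 0.14). BCL6, also of this list, rose by 1.10 ± 0.20. RAG1 (0.79 ± 0.36) and KLF2 (−0.38 ± 0.18) did not pass.

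Regulators of AMPK and mTORC1 were higher in 11 of 28 cases and lower in 4, with a median of 0.14. SESN3, a sestrin that restrains mTORC1, had 99.4, 105 and 107 CPM in KPT-330+CS, against 52.9, 56.4 and 55.2 CPM in KPT-330 (0.92 ± 0.08, edgeR adjusted p = 3.27e-06). DEPTOR, an inhibitor within the mTOR complexes, had 6.01, 4.61 and 4.70 CPM, against 3.06, 2.89 and 2.48 CPM (0.86 ± 0.15). Both genes rose without overlap. MLST8 (−0.78 ± 0.29) and RPTOR (−0.52 ± 0.18), at adjusted p of 0.0493 and 0.0328, lost the call in several alternatives. The 4 lower became 2 without KPT-330+CS replicate 2 or 3, any 1 of the KPT-330 replicates, or CS replicate 2. TSC2 (−0.48 ± 0.21) and SESN2 (0.45 ± 0.24) did not pass. With the GC correction MLST8 was at −0.36, RPTOR at −0.24, TSC2 at −0.13 and SESN2 at 0.71, and all 4 passed. Of autophagy and lysosome genes 8 of 34 (23.5%) rose and 5 (14.7%) fell (3 with no filter, 9 with the GC correction), shares near the 19.7% and 17.9% of all tested genes. Besides GABARAPL1, the cholesterol-binding protein gene NPC2 had 27.6, 30.4 and 26.2 CPM, against 15.1, 14.6 and 14.9 CPM (0.91 ± 0.08), and LAMP1 fell (−0.56 ± 0.08).

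The p53 targets had no common direction, with 10 of 26 higher and 7 lower, or 4 lower without replicate 3 of either group. CDKN1A, the gene of the cycle inhibitor p21, had 9.43, 8.19 and 6.89 CPM in KPT-330+CS, against 8.28, 8.04 and 8.54 CPM in KPT-330. The groups overlapped, and the difference of −0.02 ± 0.14 did not pass (edgeR adjusted p = 0.914), nor did the 0.18 found with the GC correction. MDM2, the ligase of p53, was at 0.02 ± 0.08 and did not pass. With the GC correction its sign turned and it passed as lower (−0.10, edgeR adjusted p = 0.0107). AEN fell (−0.96 ± 0.09), as did PLK3 (−1.26 ± 0.30). In the BCL2 family 6 of 15 rose and 2, BAX and BCL2L12, fell, or 0 without replicate 3 of either group or with no filter on low counts. BMF, a death-promoting member, had 43.1, 45.2 and 38.9 CPM, against 16.5, 15.8 and 16.8 CPM (1.37 ± 0.10). HRK, another, had 26.2, 26.0 and 27.0 CPM, against 16.1, 15.1 and 14.9 CPM (0.78 ± 0.08). BCL2 itself, which protects from death, had 255, 244 and 265 CPM, against 166, 168 and 162 CPM (0.62 ± 0.06). Promoting and protecting members thus rose side by side, and CS alone raised BCL2 by 0.61. BAX was at −0.72 ± 0.21 and BCL2L12 at −0.67 ± 0.24 (edgeR adjusted p = 0.0437), a call also lost in several other alternatives, and BAD (−0.52 ± 0.29) and BIK (−0.38 ± 0.20) did not pass.

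Cholesterol genes, controlled by SREBP2, were higher in 11 of 23 cases and lower in 0, with a median of 0.21. HMGCS1, which commits acetyl-CoA to the pathway, had 223, 231 and 249 CPM in KPT-330+CS, against 135, 143 and 139 CPM in KPT-330 (0.75 ± 0.08, edgeR adjusted p = 8.46e-06). MSMO1 had 55.8, 59.4 and 63.2 CPM, against 33.0, 35.8 and 32.5 CPM (0.82 ± 0.08). INSIG1, which holds SREBP in the endoplasmic reticulum, had 81.2, 81.1 and 84.0 CPM with the combination and 51.7, 53.3 and 51.4 CPM with KPT-330 (0.66 ± 0.05). None of these overlapped, and STARD4 (0.70 ± 0.08) and CYP51A1 (0.52 ± 0.08) rose too. CS alone changed 0 of the 23, and KPT-330 had lowered 15 of them against DMSO, with a median of −0.47. The list median in the KPT-330+CS libraries was 0.29, 0.24 and −0.01 above the KPT-330 mean, with replicate 3 the lowest. PMVK (−0.28 ± 0.12) and TM7SF2 (−0.27 ± 0.21) did not pass. Fatty acid synthesis moved little as a list (3 of 15 higher, 2 lower): ELOVL6 rose (0.53 ± 0.08), FADS2 fell (−0.66 ± 0.13, and −0.43 with the GC correction), and FASN (−0.65 ± 0.36) did not pass. Of fatty acid oxidation, 9 of 25 genes fell, led by BBOX1 and CD36 above, and 4 rose, or 2 without KPT-330+CS replicate 3 or KPT-330 replicate 2 or 3. PPARGC1A rose most of the 4 (1.75, and 1.61 with the GC correction), and FABP5 fell (−0.47 ± 0.07).

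Interferon-stimulated genes, which defend against viruses, were higher in 13 of 36 cases and lower in 3, with a median of 0.27. SAMD9 had 37.8, 41.3 and 40.9 CPM in KPT-330+CS, against 15.7, 17.1 and 14.9 CPM in KPT-330 (1.33 ± 0.09, edgeR adjusted p = 5.37e-07). IFIT2, which binds foreign RNA, had 1.41, 1.52 and 1.64 CPM, against 0.324, 0.297 and 0.192 CPM (2.49 ± 0.28); LIPA, a more abundant gene on the opposite strand, overlaps 1.5% of its exon bases. IFIT5 (1.69 ± 0.28) and IFIT3 (1.02 ± 0.19) rose at similarly low counts, and IFIT1 (1.38 ± 0.80) and RSAD2 (−0.76 ± 0.56) did not pass. The interaction was positive for 15 of the 36 and negative for 0, and CS alone raised 2 and lowered 7. For IFIT2 the interaction was 3.61 ± 0.43 (adjusted p = 0.000169), and its change with CS alone was −1.12. The 3 lower genes became 0 without KPT-330+CS replicate 2 or KPT-330 replicate 1 or 3, and 1 without KPT-330+CS replicate 3 or KPT-330 replicate 2.

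Antigen presentation on MHC class II, a task of B cells, was lower in 9 of 17 genes and higher in 2, with a median of −0.24. HLA-DRB1 had 160, 151 and 142 CPM in KPT-330+CS, against 223, 225 and 248 CPM in KPT-330 (−0.62 ± 0.11, edgeR adjusted p = 0.000699), and HLA-DRB5, which shares sequence with it, was at −0.55 ± 0.09 and also fell. The invariant chain gene CD74 had 786, 713 and 577 CPM, against 1076.4, 1017.9 and 1096.5 CPM (−0.62 ± 0.16), a call lost with no filter on low counts. CTSS, the protease that trims that chain, rose to 120, 129 and 144 CPM, against 85.1, 86.2 and 84.2 CPM (0.62 ± 0.08). HLA-DQB1 (−0.50 ± 0.15) lost its call without KPT-330+CS replicate 3 (adjusted p = 0.0721), and HLA-DPB1 (−0.25 ± 0.12) and RFXANK (−0.34 ± 0.21) did not pass. KPT-330 had raised 14 of the 17 against DMSO and CS alone 9, and the interaction was negative for 14.

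B cell identity genes were lower in 16 of 34 cases and higher in 5, with a median of −0.23, but 10 were lower and 2 higher without KPT-330+CS replicate 3, and 3 higher without KPT-330 replicate 1. FCRL1, an Fc receptor-like protein of B cells, had 2.57, 2.35 and 2.24 CPM in KPT-330+CS, against 5.37, 4.89 and 5.34 CPM in KPT-330 (−1.12 ± 0.11, edgeR adjusted p = 9.65e-06). Its groups lay apart. SPIB (−1.23 ± 0.09) shares 19.6% of its exon bases with a clone-named gene, and CXCR5 (−0.85 ± 0.22) shares 91.1% with BCL9L. CD79A (−0.58 ± 0.24) and CD79B (−0.34 ± 0.20) did not pass, and with the GC correction CD79A did (−0.31). Of 10 plasma cell genes tested, 3 rose and 2 fell, with a median of 0.02. CD27 changed most (−1.57, and −1.32 with the GC correction), though CD27-AS1 covers 42.5% of its exon bases on the opposite strand. IRF4, a factor of plasma cell and B cell lymphoma, fell to 54.4, 54.9 and 53.2 CPM, against 102, 103 and 106 CPM (−0.94 ± 0.05). XBP1, PRDM1 (0.68 ± 0.16) and CD38 (0.32 ± 0.06, and 0.21 with the GC correction) rose. Of the mantle cell lymphoma genes, CCND1 had 549, 487 and 348 CPM, against 539, 535 and 558 CPM, and its −0.24 ± 0.22 did not pass. SOX11, at 0.19 ± 0.06 (adjusted p = 0.0186), lost its call in 6 of the alternatives. CD5 fell (−1.30 ± 0.20), as did DBN1 (−1.13 ± 0.21, and −0.73 with the GC correction). MYC had 518, 495 and 458 CPM, against 333, 336 and 334 CPM, and rose by 0.55 ± 0.08.

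NF-kappaB targets were lower in 11 of 29 cases and higher in 4, with a median of −0.26. ICAM1, an adhesion molecule, had 6.28, 6.40 and 5.19 CPM in KPT-330+CS, against 12.4, 12.5 and 12.9 CPM in KPT-330 (−1.09 ± 0.10, edgeR adjusted p = 3.19e-06). The cytokine gene IL10 had 0.0805, 0.0533 and 0.141 CPM, against 1.31, 1.96 and 1.71 CPM (−4.07 ± 0.35). The chemokine gene CCL22 had 1, 1 and 0 reads, against 65, 64 and 82 reads, so that at equal depth KPT-330 held 94.72 times as many (95% exact interval 25.9 to 787.2, counting error only). Reads of EBI3 (0, 0 and 2, against 13, 7 and 6) and TNFAIP2 (1, 0 and 1, against 6, 10 and 11) were too few for more than a direction; the ratios of KPT-330 over KPT-330+CS were 11.67 (2.922 to 101.5) and 12.12 (3.046 to 105.2). TNF had 0, 0 and 0 reads, against 2, 1 and 0, and did not pass, nor did IER3 (−0.44 ± 0.33). The genes of the subunits themselves (NFKB1 −0.02, RELA −0.16, REL 0.07, RELB −0.39 and NFKB2 −0.26) did not pass either, and BIRC3 rose (0.43 ± 0.09). KPT-330 had lowered 19 of the 29 against DMSO, and CS alone lowered 1.

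Of the prostaglandin pathway, the field of salicylate's better-known use, PTGS2 (cyclooxygenase 2) had 0 reads in all 12 libraries. PTGS1 had 10.9, 9.92 and 11.1 CPM in KPT-330+CS, against 10.5, 10.9 and 10.4 CPM in KPT-330, and its 0.00 ± 0.11 did not pass (edgeR adjusted p = 0.978). Of the 9 tested genes 3 rose and 5 fell, among them the phospholipase gene PLA2G4A (1.16 ± 0.21) and the lipoxygenase gene ALOX5 (−0.56 ± 0.12).

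Of 85 cytosolic ribosomal protein genes 37 rose and 2 fell, with a median of 0.14, and RPL23 had 1017, 1002 and 1148 CPM in KPT-330+CS, against 751.9, 728.0 and 717.1 CPM in KPT-330 (0.53 ± 0.07, edgeR adjusted p = 8.58e-05). Ribosome biogenesis genes fell in 22 of 28 cases and rose in 1, with a median of −0.38: DDX21, a nucleolar helicase, had 329, 344 and 371 CPM, against 489, 489 and 483 CPM (−0.48 ± 0.07). Ribosomal protein genes have many processed copies, which can share reads. Nuclear export and import genes fell in 16 of 28 cases and rose in 2, with a median of −0.30. KPNA2, an importin alpha, had 70.2, 71.2 and 75 CPM, against 149, 143 and 145 CPM (−1.01 ± 0.05), and RANBP1 fell as well (−0.89 ± 0.08). Proteasome genes fell in 14 of 26 cases with 0 higher (PSMC3 −0.67 ± 0.07). Glycolytic genes fell in 13 of 23 cases and rose in 3: ENO1 had 1173, 1143 and 955.2 CPM, against 1736, 1643 and 1718 CPM (−0.64 ± 0.11), while ALDOC (1.21 ± 0.17) and the glucose transporter gene SLC2A3 (1.00 ± 0.13) rose.

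Transcripts of the mitochondrial chromosome were higher for both ribosomal RNAs and 8 of 13 messages, with 1 message lower. MT-RNR2 had 22421, 23087 and 25237 CPM in KPT-330+CS, against 13241, 13335 and 12831 CPM in KPT-330 (0.84 ± 0.08, edgeR adjusted p = 5.85e-06), and MT-RNR1 rose by 0.62 ± 0.08. With CS alone MT-RNR2 (−0.02) and MT-RNR1 (−0.15) did not pass, and the interaction was 0.87 ± 0.11 for MT-RNR2 and 0.76 ± 0.11 for MT-RNR1. MT-CO2 had 10746, 10970 and 11993 CPM, against 7930, 7823 and 7677 CPM (0.52 ± 0.07), and MT-ND6, the message encoded on the other strand, fell (−0.37 ± 0.09). MT-ND5 (0.13 ± 0.07) and MT-CO3 (−0.11 ± 0.07) did not pass, and with the GC correction MT-CO3 did (−0.20). Of 22 transfer RNA genes, 7 rose and 10 fell in read count. MT-TR had 20.7, 23.3 and 21.5 CPM, against 5.37, 4.57 and 4.72 CPM (2.16 ± 0.13), and MT-TF had 3.02, 2.29 and 3.18 CPM, against 13.2, 13.0 and 11.6 CPM (−2.14 ± 0.14). With CS alone MT-TR was at 1.83 and MT-TF at −2.65, and 3 rose and 8 fell in both settings. Of the others that rose in KPT-330 cells, MT-TW was at 0.96 there and fell with CS alone (−0.74), and MT-TV was at 0.99 there and did not pass with CS alone (−0.30). Mature transfer RNAs are too short for these libraries and lack a poly(A) tail, and nuclear copies of mitochondrial sequence can share reads.

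**Figure D4:**
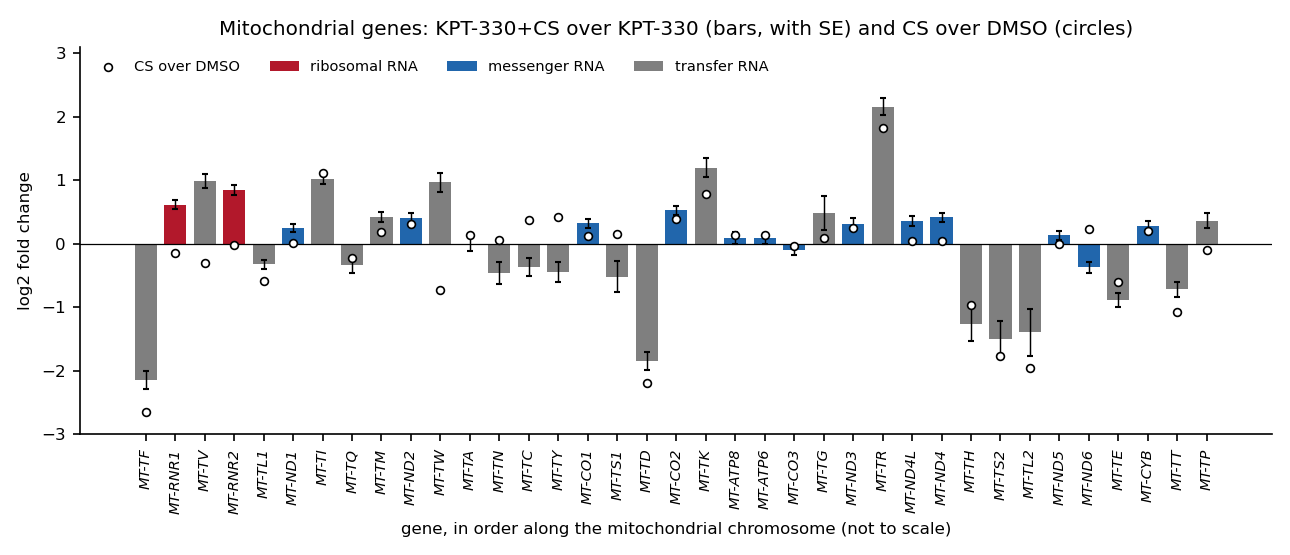
Log2 fold change of KPT-330+CS over KPT-330 (bars, with SE) and of CS over DMSO (circles) for 37 mitochondrial genes in chromosome order, coloured by kind of RNA. Bars and circles lie close for MT-TR (2.16 and 1.83) and MT-TF (−2.14 and −2.65), and apart for MT-RNR2 (0.84 and −0.02).

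CS changed 7311 genes on top of KPT-330 and 1729 (8.88%) in DMSO cells. Of the 7311, 1008 changed in the same direction with CS alone (13.79% of these genes and 58.3% of those called with CS alone), and 151 changed in the opposite direction (2.065% and 8.733%). The interaction was called for 2500 of the 7311 (34.2%). Among named genes with at least 5 CPM in some group, RGS1 had the highest interaction, 3.28 ± 0.19 (edgeR adjusted p = 8.84e-07): it rose in KPT-330 cells and fell in DMSO cells, to 1.21 ± 0.01 CPM with CS, against 3.07 ± 0.42 CPM with DMSO. GABARAPL1 (2.26 ± 0.17) likewise rose in KPT-330 cells and fell in DMSO cells. MDK, the midkine gene, had 10.1, 7.65 and 6.01 CPM in KPT-330+CS, against 17.0, 18.2 and 19 CPM in KPT-330, and 0.416 ± 0.12 CPM in CS, against 0.132 ± 0.08 CPM in DMSO. It fell in the first pair and passed as higher in the second, which rests on few reads, with an interaction of −2.80 ± 0.45. Genes such as BCL2 (0.01 ± 0.08), ASNS and MT-TR (0.33 ± 0.20) responded to CS by amounts whose difference, the interaction, did not pass. That does not show equal responses.

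**Figure D5:**
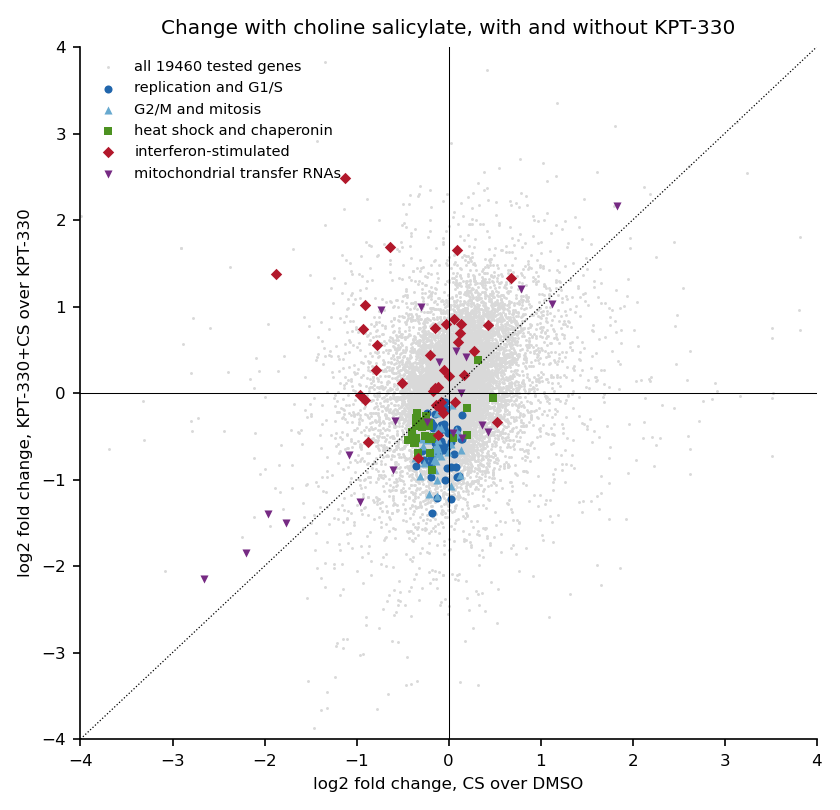
Log2 fold change with CS in KPT-330 cells (KPT-330+CS over KPT-330, vertical axis) and in DMSO cells (CS over DMSO, horizontal axis) for 19460 tested genes, of which 18 lie outside the axes, with 5 lists coloured; the dotted line marks equal change. Replication and mitotic genes lie below 0 on the vertical axis and near 0 on the horizontal, and MT-TF and MT-TR lie near the line.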

How the data were processed

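RNA from 12 JEKO-1 libraries, 3 in each of 4 groups, had been prepared with TruSeq RNA V2, which does not mark the strand, and sequenced on an Illumina HiSeq, per the labels' protocols. The authors aligned reads with STAR to hg38 and deposited raw read counts per Ensembl gene, per the labels and the submitters' processing notes; no normalization is in the deposited counts. The program that counted the reads is not given in the sources used here. The table held 64253 genes, of which 28113 had no count. A spreadsheet had turned 29 names into dates, and these were replaced by the symbol of their Ensembl identifier where one was found. Replicates differed by more than sampling noise.

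Genes were filtered by edgeR's filterByExpr, scaled by TMM and tested with the robust quasi-likelihood F test in edgeR 4.0.16 (R 4.3.3), with group as the only term over all 12 libraries and Benjamini-Hochberg adjustment over 19460 genes. CPM use TMM-scaled totals, except the summed CPM of cell type markers, which use unscaled library totals. Standard errors are the log2 fold change over the square root of F. The interaction is the effect of CS with KPT-330 minus its effect with DMSO. The script was tested on simulated data. Exon overlaps came from GENCODE annotation and promoter windows from RefSeq.

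The members and the gene lists were chosen with earlier results of these data known. Genes named are the 12 highest and 12 lowest that passed with at least 5 CPM and no overlap, the 5 highest and 5 lowest interactions, up to 5 passing and up to 2 not passing members of each list, and a fixed set of 13. Others were named after their values were seen: PCNA, MCM2, MCM6, MCM7, RPA1, RPA3, RRM2B, BRCA2, RAD50, MRE11A, FANCF, ATM, RNF8, RAD17, ASNS, HIST1H3B, HIST1H4K, BIRC3, MT-TV, MT-TW and the NF-kappaB subunits. A few genes that this rule names are not reported here.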

Additional observations from a re-analysis of the deposited data

Results flagged for a closer look

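For 9 genes the effect of CS in KPT-330 cells differed from its effect in DMSO cells by edgeR's interaction test, and these are among the 5 highest and 5 lowest such differences of genes with at least 5 CPM in some group. Of the positive ones, RGS1 was at 3.28 (adjusted p = 8.84e-07), FAM9B at 2.71 (adjusted p = 6.36e-06), GABARAPL1 at 2.26 (adjusted p = 5.27e-06) and DLGAP1-AS1 at 2.03 (adjusted p = 5.53e-05). FAM9B averaged 1.24 ± 0.11 CPM in CS and 1.54 ± 0.24 CPM in DMSO (SD, n = 3 each), both far below its level in KPT-330+CS.

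Of the negative ones, SLITRK6 was at −2.81 (adjusted p = 1.48e-05), MDK at −2.80 (adjusted p = 0.00149), LIX1 at −2.58 (adjusted p = 0.00612), PIGR at −2.37 (adjusted p = 9.88e-05) and BBOX1 at −2.28 (adjusted p = 1.27e-07). MDK averaged 0.416 ± 0.12 CPM in CS and 0.132 ± 0.08 CPM in DMSO, so its effect of CS in DMSO cells rests on few reads. LIX1, too, averaged 0.13 ± 0.06 CPM in CS and 0.111 ± 0.08 CPM in DMSO, and its difference missed the threshold without CS replicate 3 (−2.17, adjusted p = 0.0516). SLITRK6 and PIGR, too, were near 1 CPM in CS (1.13 ± 0.12 and 1.46 ± 0.18) and in DMSO (0.774 ± 0.13 and 1.29 ± 0.31). BBOX1 fell with CS in both settings, and was at 29.7 ± 0.71 CPM in CS and 77.4 ± 7.45 CPM in DMSO. No explanation of these differences was tested.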

How the results depend on the processing

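The analysis was repeated with 23 alternatives, 12 of which left out 1 library each. Of 211 named genes that passed in the comparison of KPT-330+CS with KPT-330, 183 passed in each alternative in which they were tested and 0 changed sign. Of 81 that did not pass, 44 passed with the same sign in at least 1 alternative. The count of genes past the study's limit was 166, but 275 with no filter on low counts and 67 when genes needed 1 CPM in 3 or more libraries. The interaction was called for 2853 genes, for 5113 with the GC correction and for 4687 with the GC correction and the replicate block, and between 1713 and 4711 when 1 library was left out; the cause was not tested. MDM2, not called at 0.02, was at −0.10 under the GC correction without and with the block, and passed as lower in both (edgeR adjusted p = 0.0107 and 0.0121). Between KPT-330+CS and KPT-330 the replicate numbers did not pair the samples (correlations of same-numbered deviations −0.0559, −0.0162 and −0.0641). Pairing among the other groups was not examined. With the replicate as a block over all groups, 3424 genes were higher and 3052 lower, and the interaction was called for 1958. Over all alternatives 2849 to 4581 genes were higher and 2634 to 5005 lower. No correction by a measure of RNA quality was made, and with 3 libraries a group the spread itself is poorly known.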

Other observations

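For other lists the counts of genes changed by CS on top of KPT-330 are given as values; over all tested genes 19.7% were higher, 17.9% lower and 37.6% called. Growth factor response genes held 3 higher and 6 lower of 21, among them EGR1 (−1.12 ± 0.18), a factor made at once after stimulation, and SPRY1 (1.01 ± 0.11), a brake on receptor kinases. Nuclear-encoded respiratory chain genes were lower in 11 of 34 cases and higher in 2, but lower in 5 without KPT-330+CS replicate 2 or KPT-330 replicate 3 and in 21 with the GC correction. Factors of mitochondrial gene expression were lower in 7 of 21 cases and higher in 3, with 4 lower without KPT-330 replicate 1 or 3. Aminoacyl-tRNA synthetases were lower in 5 of 20 cases and higher in 2, and NRF2 targets, which meet oxidative stress, lower in 4 of 20 and higher in 2. Summed T cell markers lay between 1.868 and 2.425 CPM in KPT-330+CS and between 3.809 and 4.17 CPM in KPT-330, and CD3E (−2.24) and CD7 (−1.69), a pair of them, fell at these low levels.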
